A study of Mus musculus with 16 samples.

Results

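Loss of HP1γ, one of the chromobox proteins of heterochromatin, was followed here through 10 genes of memory CD4+ T cells: Fat1, Dnah12, Shisa6, Myh13, Gm21188, Gm6093, Als2cl, Oxsr1, Gm37240 and Gm47015. They were picked by name out of 56748 genes listed, because they were higher in HP1γ KO than in WT cells in these same samples. That difference is therefore given as a description only, since the genes were chosen by it. What they did in the HP1α line was not part of the choice and was tested.

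RNA was sequenced from memory T cells (CD4+CD25low/-CD62L-CD44high) sorted from mouse spleen, in 4 groups of 4 samples. HP1α KO mice, homozygous for an Hp1a allele from which CMV-cre had excised the floxed sequence, were compared with +/+ littermates. In the HP1γ line, KO and WT littermates were both homozygous for the floxed Hp1g allele and the HP1γ KO also carried Cd4-cre, so that effects of the Cre transgene and of HP1γ loss are confounded and cannot be told apart. Mice were on a mixed 129/Sv and C57BL/6 background, sex-matched and young adult. Deposited counts summed to between 26694045 and 40199637 per sample. The labels do not tie each sample to 1 animal, so that p-values measure the spread between these samples.

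HP1α, HP1β and HP1γ bind methylated lysine 9 of histone H3 through a chromodomain and recruit partners through a chromoshadow domain. They are best known for the compaction and silencing of heterochromatin, and HP1γ is also found along the bodies of transcribed genes. Most of the 10 genes have no known task in T cells, and several are textbook markers of other tissues. Fat1 is a giant cadherin that feeds into the Hippo pathway, Dnah12 a dynein motor of cilia, Myh13 the myosin of the eye muscles, and Shisa6 a subunit that accompanies glutamate receptors at synapses. Als2cl is a relative of the Rab5 activator alsin, and Oxsr1 is the kinase that WNK kinases switch on to control chloride transport. Gm6093, Gm37240 and Gm47015 carry only the names of predicted genes.

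The genes lie on 7 chromosomes of GRCm39. Fat1 is on chromosome 8 from 45388302 to 45505294 (plus strand), Dnah12 on chromosome 14 from 26414410 to 26613660 (plus strand) and Gm47015 on chromosome 10 from 79248796 to 79253739 (minus strand), where it is annotated as a long noncoding RNA with 1 transcript. Chromosome 9 holds Als2cl, from 110708832 to 110729598 (plus strand), and Oxsr1, from 119067498 to 119151509 (minus strand), with 8442677 bp between their starts. Chromosome 13 holds the long noncoding RNA gene Gm6093, from 33746469 to 33753300 (minus strand), and Gm21188, from 120496140 to 120513730 (minus strand), which the annotation now calls Anxa2r1. One pair is not dispersed. Shisa6, on chromosome 11 from 66102551 to 66417652 (minus strand), and Myh13, from 67212484 to 67262413 (plus strand), start 794832 bp apart with 4 other tested genes between them. Gm37240, on chromosome 3 from 84403733 to 85794825 (minus strand), is a readthrough model that spans several other genes.

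The 250 bases before the start of the canonical transcript did not look alike in the 9 genes for which they were described. CpG dinucleotides, which are dense in the CpG islands of many promoters, ranged from 0 in Gm21188 to 23 in Als2cl and Gm37240, against a median of 11 over the promoters of 14904 tested genes. The CpG-rich side held Als2cl and Gm37240, each with more CpG than 84.9% of these promoters, Oxsr1 (21) and Fat1 (19). The CpG-poor side held Myh13 (3), Dnah12 (2), Gm6093 and Gm47015 (1 each) and Gm21188. A poor promoter and the one with no CpG are shown as read from GRCm39, 5′ to 3′ on the strand of the gene, with each CpG in capitals. They are Dnah12 (chr14:26414160-26414409, plus strand) and Gm21188 (chr13:120513705-120513954, minus strand).
Dnah12: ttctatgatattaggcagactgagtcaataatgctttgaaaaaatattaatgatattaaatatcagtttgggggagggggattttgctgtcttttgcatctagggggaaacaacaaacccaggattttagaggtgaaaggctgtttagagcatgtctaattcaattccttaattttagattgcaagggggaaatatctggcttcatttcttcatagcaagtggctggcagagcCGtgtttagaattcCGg
Gm21188: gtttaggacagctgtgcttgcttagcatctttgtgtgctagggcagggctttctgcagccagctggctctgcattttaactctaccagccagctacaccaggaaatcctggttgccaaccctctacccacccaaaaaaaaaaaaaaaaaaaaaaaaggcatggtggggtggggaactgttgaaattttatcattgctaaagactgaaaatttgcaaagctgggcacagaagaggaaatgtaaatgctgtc
Of 5 short motifs searched on both strands, none was found in all 9 promoters. The GC box (GGGCGG), present in 44.4% of the promoters of tested genes, was in Als2cl, Oxsr1 and Gm37240. The TATA box (TATAAA, 8.8% of the promoters) was in Myh13 and Gm6093, and the CCAAT box (CCAAT, 35%) in Gm6093 and Gm47015. The AP-1 motif (TGANTCA, 4.8%) was in Dnah12 and Gm6093, and the ETS motif (CCGGAA, 16.6%) in Dnah12 and Oxsr1. These matches describe letters in a window and not bound sites.

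The samples were first checked against their labels. Cbx3, which encodes HP1γ, was measured at 47.5 ± 1.98 CPM (counts scaled to library size; SD, n = 4) in HP1γ KO and 84.5 ± 8.66 CPM in their WT littermates. The log2 fold change (log2FC) was -0.82 (SE, its standard error, 0.0790, adjusted p = 0.0015 by edgeR's quasi-likelihood test). Cbx5, which encodes HP1α, was at 27.1 ± 2.77 CPM in HP1α KO and 40.3 ± 9.28 CPM in WT, with a log2FC of -0.58 (SE 0.145, adjusted p = 0.946 in the same edgeR test). Transcripts of both genes were thus still counted in KO cells. In the HP1γ line, Cbx5 was at 25.4 ± 4.72 CPM in KO and 31.3 ± 4.98 CPM in WT. The HP1α KO samples overlapped both of these groups, so that Cbx5 RNA did not set them apart from the other line. By western blot of naive CD4+ T cells, the paper reported HP1α as absent and HP1γ as almost fully deleted. The 7 markers of memory CD4 T cells summed to between 3594 and 4195 TPM (an abundance scale that corrects for transcript length) in all 16 samples.

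Markers of red blood cells varied widely, and their ranges overlapped between KO and WT in both lines. Their mean sum in the HP1γ line was 2690 ± 1701 TPM in KO and 925 ± 866 TPM in WT (SD, n = 4). In the HP1α line it was 356 ± 258 TPM in KO and 519 ± 792 TPM in WT. The 5 erythroid genes, led by the globin Hbb-bs, summed to between 275 and 4199 TPM in HP1γ KO and between 142 and 1818 TPM in their WT littermates. In the HP1α line they summed to between 119 and 622 TPM in KO and between 56.1 and 1704 TPM in WT. Replicate 3 of HP1γ KO had the lowest sum of its group, at 275 TPM. The 7 myeloid markers summed to between 60.4 and 116 TPM in HP1γ KO and between 36.0 and 77.4 TPM in WT, and the 7 B cell markers to between 12.2 and 22.7 TPM and between 6.57 and 17.8 TPM. The myeloid and B cell ranges also overlapped between HP1γ KO and WT. The part of the erythroid, myeloid and B cell markers in the results below was not tested. The 7 muscle markers, among which Myod1 was near 0, overlapped between the groups (23.0 to 45.7 TPM in HP1γ KO, 25.8 to 43.4 TPM in WT), as did the 7 markers of ciliated cells (4.03 to 4.84 and 3.51 to 5.95 TPM), of which Dnai1 was listed at 0 in all samples. The 5 naive and regulatory T cell markers (362 to 478 and 364 to 508 TPM) and the 6 markers of CD8 and NK cells (44.1 to 67.9 and 39.4 to 65.8 TPM) overlapped too.

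In WT cells the levels of the 10 genes ranged from abundant to barely detected. Als2cl, Oxsr1 and Gm47015 were abundant, with means of 63.1 ± 8.67, 30.5 ± 5.05 and 33.5 ± 4.47 TPM (SD, n = 4) in WT cells of the HP1γ line. Als2cl thereby exceeded 82.5% of the tested genes, Oxsr1 68.0% and Gm47015 70.1%. Fat1 and Dnah12 stood at the bottom of the same scale, at 0.0667 ± 0.0633 and 0.0733 ± 0.0151 TPM, above only 0.107% and 0.154% of the tested genes. Gm6093 was lower still, at 0.0362 ± 0.0449 TPM, and Myh13, Gm21188 and Shisa6 were at 0.133 ± 0.0744, 0.194 ± 0.0975 and 0.369 ± 0.164 TPM. Gm37240 lay between, at 2.26 ± 1.33 TPM, above 25.5% of the tested genes. The order of Fat1, Dnah12 and Gm6093, and of Myh13 and Gm21188, was within the spread between samples. The tested genes are those that passed a filter on low counts in the HP1γ line, KO samples included. Fat1 passed it only through KO samples, so that its rank near the bottom in WT follows in part from that choice. By CPM, not corrected for transcript length, Dnah12 (0.573) was above Myh13 (0.369), Fat1 (0.318), Gm21188 (0.129) and Gm6093 (0.0444) in these WT cells. The other genes were higher.

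All 10 genes passed the filter on low counts in the HP1γ line, but Fat1, Gm21188 and Gm6093 did so only through the KO samples, since fewer than 4 of their WT samples reached its limit of 0.314 CPM. All 10 had an adjusted p under 0.05 with a positive log2FC, which 0.254% of the 14975 genes tested had, and 7 also had a log2FC above 1, which 0.194% had. This is what they were picked for, and nothing is read from it. The smallest log2FC above that limit was 1.88 (Gm37240), and the largest under it 0.87 (Als2cl and Oxsr1). In each of the 10 genes, the lowest HP1γ KO sample was above the highest WT littermate, as in 3.22% of all tested genes. In 9 of the 10 genes the 4 HP1γ KO samples were also above all 12 other samples, HP1α KO included, as in 1.2% of 15776 genes. Als2cl was the exception.

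**Figure D1:**
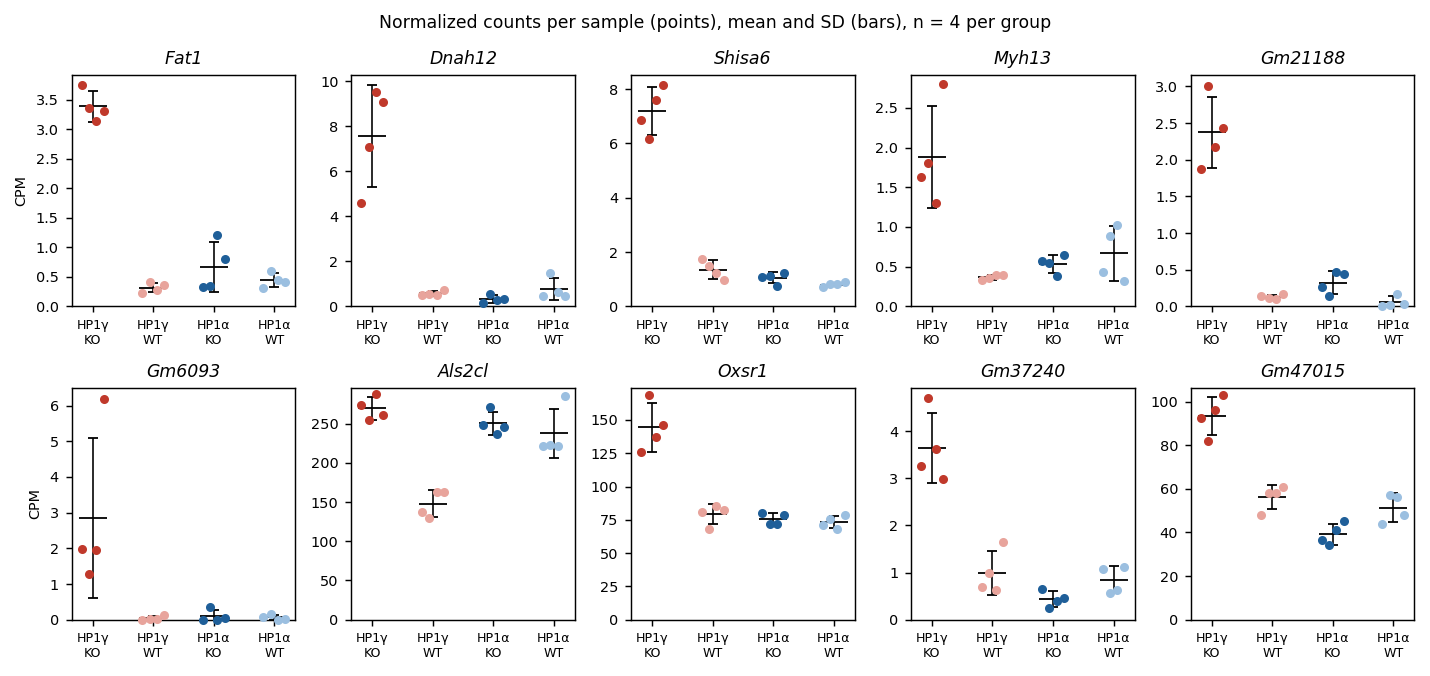
Normalized counts (CPM) of the 10 genes in each of the 16 samples. Points are samples, the horizontal mark is the mean and the bar the SD (n = 4 per group), and each panel has its own axis from 0. The HP1γ KO samples stand above all others in every panel except Als2cl, where the HP1γ WT samples stand below the other 3 groups.

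Of the motor genes, Dnah12 had the wider gap. The 4 samples of HP1γ KO held 4.59, 7.08, 9.54 and 9.06 CPM of Dnah12, and their WT littermates held 0.486, 0.561, 0.517 and 0.729 CPM. The lowest KO sample was thus several times above the highest WT sample, and the log2FC was 3.72 (SE 0.272), or 13.2-fold. Myh13 was at 1.63, 1.80, 1.31 and 2.79 CPM in HP1γ KO and between 0.330 and 0.395 CPM in WT, and its log2FC was 2.36 (SE 0.298). Its WT values rest on 10 to 14 counts a sample, and KO replicate 4 was the highest.

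Of the membrane proteins, Fat1 had the most even KO samples. It was measured at 3.75, 3.37, 3.14 and 3.31 CPM in HP1γ KO and at 0.227, 0.408, 0.274 and 0.365 CPM in WT. These correspond to between 96 and 129 counts a sample in KO and between 7 and 16 in WT. The log2FC of Fat1 was 3.40 (SE 0.245), or 10.5-fold. Shisa6 was at 6.86, 6.16, 7.61 and 8.16 CPM in HP1γ KO and at 1.75, 1.48, 1.22 and 0.973 CPM in WT, with no overlap. Its log2FC was 2.42 (SE 0.202), or 5.34-fold.

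Oxsr1 and Als2cl, the signalling genes, differed by less but rest on far more counts. Oxsr1 was at 126, 169, 137 and 146 CPM in HP1γ KO and at 80.5, 68.2, 85.7 and 82.8 CPM in WT. Its log2FC was 0.87 (SE 0.104), or 1.83-fold. Als2cl was at 274, 255, 288 and 261 CPM in HP1γ KO and at 137, 129, 163 and 163 CPM in WT. Although the log2FC, 0.87 (SE 0.0882), was that of Oxsr1, the 2 genes stood apart in the other line, as described below.

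The predicted genes spanned both classes. Gm47015, the abundant noncoding RNA, was at 92.7, 81.8, 96.3 and 103 CPM in HP1γ KO and at 48.0, 58.1, 58.2 and 60.7 CPM in WT, with a log2FC of 0.74 (SE 0.0931). Gm21188 was at 1.88, 3.01, 2.17 and 2.43 CPM in HP1γ KO and between 0.0941 and 0.167 CPM in WT, with a log2FC of 4.29 (SE 0.296). The WT group of Gm21188 held 17.4 counts in sum, and the ratio of the summed counts was 18.7 (95% interval 11.7 to 33.2).

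Gm6093 had the largest ratio and the fewest WT counts. Its counts were 52, 38, 60 and 241 in HP1γ KO and 0, 1, 1 and 4 in WT. KO replicate 4 was far above the other 3, at 6.19 CPM against 1.29 to 1.97 CPM. The ratio of the summed counts was 70.7 (95% interval 32.2 to 194), and intervals of this kind cover counting error only. Its log2FC of 5.91 became 5.19 without HP1γ KO replicate 4 and 6.95 without HP1γ WT replicate 4. Gm37240 was at 3.27, 4.69, 3.63 and 2.97 CPM in HP1γ KO and at 0.693, 0.993, 0.638 and 1.65 CPM in WT, with a log2FC of 1.88 (SE 0.314).

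In the HP1α line, none of the genes tested passed the threshold. Of the 10, 8 passed the filter in the HP1α line, and 0 had an adjusted p under 0.05 by edgeR's quasi-likelihood test, where 0% of the 14881 genes tested had one. DESeq2 gave 8 genes in all and 0 of these 10. The log2FC was above 0 in 4 genes and below 0 in 4, and an unadjusted p under 0.05 was reached by 3 of the 8, all lower in KO, against 4.27% of all genes tested. In the fits that kept all 10, without a filter or with all 16 samples, 4 reached it, the additional one being Gm21188, which was higher in KO. In 0 of the 10 genes did the CPM of HP1α KO and WT not overlap, against 2.96% of tested genes.

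**Figure D2:**
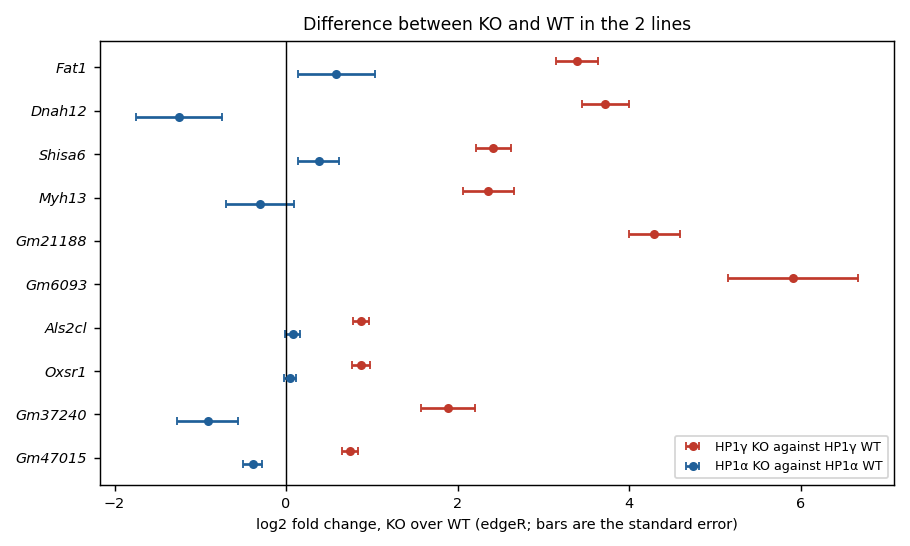
Log2FC of KO over WT littermates for the 10 genes, in the HP1γ line (red) and the HP1α line (blue). Points are the edgeR estimates and bars their standard errors. Red points lie between 0.74 and 5.91 and blue points between -1.25 and 0.58, and Gm21188 and Gm6093 have no blue point because they were under the filter on low counts.

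The 3 genes with a small unadjusted p in the HP1α line pointed down, but only Gm47015 kept an unadjusted p under 0.05 in all alternatives. Dnah12 and Gm37240 both lost it on both TPM scales and without HP1α KO replicate 3 or replicate 4. Dnah12 also lost it without HP1α KO replicate 1 or WT replicate 2. Gm37240 also lost it without HP1α KO replicate 2, WT replicate 1 or WT replicate 4. Without HP1α WT replicate 4, Als2cl reached it and was higher in KO. Gm47015 was at 36.4, 34.3, 41.1 and 45.1 CPM in HP1α KO and at 44.0, 57.3, 56.5 and 47.9 CPM in WT, so that 1 KO sample lay within the WT range. Gm47015 had a log2FC of -0.39 (SE 0.109) there, and in edgeR an adjusted p of 0.946 (0.00478 unadjusted; adjusted values ran from 0.356 to 1 over the alternatives). Dnah12 was at 0.150, 0.541, 0.294 and 0.309 CPM in KO and at 0.469, 1.49, 0.624 and 0.442 CPM in WT. Its log2FC was -1.25 (SE 0.499, adjusted p = 0.946 in edgeR), and WT replicate 2 alone held 59 of the 105 WT counts. For Gm37240 the log2FC was -0.92 (SE 0.360, adjusted p = 0.946 in edgeR).

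The other 5 genes tested in the HP1α line had an unadjusted p above 0.05 in edgeR. Fat1 was at 0.325, 0.350, 1.21 and 0.799 CPM in HP1α KO and at 0.313, 0.605, 0.441 and 0.411 CPM in WT, and its log2FC was 0.58 (SE 0.450). Those of Shisa6, Myh13, Als2cl and Oxsr1 were 0.38 (SE 0.241), -0.31 (0.393), 0.08 (0.0889) and 0.04 (0.0670), with adjusted p between 0.946 and 0.964 in edgeR. The estimates for the abundant Als2cl and Oxsr1 were the most precise among the 8 of the 10 genes tested in this line.

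Gm21188 and Gm6093 had too few counts in the HP1α line for the fit. Gm21188 was at 0.260, 0.135, 0.463 and 0.437 CPM in HP1α KO and at 0, 0.0252, 0.173 and 0.0348 CPM in WT. Every WT sample but replicate 3 was below every KO sample, and the difference gave p = 0.0571 in a two-sided exact permutation test of CPM, whose smallest possible p is 0.0286. The ratio of the summed counts of Gm21188, 47.3 in KO and 6.80 in WT, was 6.31 (95% interval 2.73 to 15.9, counting error only). In the fits that kept Gm21188, without a filter or with all 16 samples, its log2FC was 2.45 and 2.47, with an unadjusted p of 0.00753 and 0.00103 and an adjusted p of 0.802 and 0.996 in edgeR. Gm6093 held 0, 11, 0 and 2 counts in HP1α KO and 2, 6, 0 and 1 in WT (p = 0.886 in the same exact permutation test).

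The WT cells of the 2 lines were set side by side to see which baseline each gene started from. As the WT cells of the HP1γ line entered the choice of the genes, these differences are a description. Als2cl was at 221, 223, 221 and 285 CPM in WT cells of the HP1α line, above all 4 WT samples of the HP1γ line (129 to 163 CPM) with a log2 difference of 0.68 (SE 0.109), and at 237 to 271 CPM in HP1α KO. The HP1γ KO samples, at 255 to 288 CPM, thus overlapped both groups of the HP1α line, and the HP1γ WT samples lay below them. Shisa6 was lower in WT cells of the HP1α line, at 0.719 to 0.884 CPM against 0.973 to 1.75 CPM, a log2 difference of -0.75 (SE 0.256). These were the 2 of 10 genes whose WT groups did not overlap, against 19.5% of 14804 tested genes. For Oxsr1 and Gm47015 the WT groups overlapped, with log2 differences of -0.11 (SE 0.0844) and -0.13 (SE 0.106).

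When the effect of HP1α loss was subtracted from that of HP1γ loss in a fit of all 16 samples, the log2 difference was above 1 in 8 of the 10 genes, against an absolute difference above 1 in 5.63% of 15776 genes. This difference again holds the contrast that chose the genes. It was largest in Gm6093 (5.43, SE 1.62) and Dnah12 (4.98, SE 0.575), followed by Fat1 (2.80), Gm37240 (2.79), Myh13 (2.66), Shisa6 (2.03), Gm21188 (1.81) and Gm47015 (1.12). It was 0.82 (SE 0.127) in Oxsr1 and 0.79 (SE 0.130) in Als2cl.

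The TPM values of the low genes depend on which transcript the reads were assigned to. The ratio of counts to TPM in a sample gives the mean length of the transcripts behind a gene's value, set on the scale of 416 genes with a single transcript, of which at least 84.6% in each sample came within 2% of their annotated length. Gm47015, with 1 transcript, came out at 2710 nt in all 16 samples. For Shisa6 this length ranged from 1277 to 7253 nt. Among the HP1γ KO samples, replicate 3, with a length of 1677 nt, was listed at 7.85 TPM from 233 counts, while replicate 4, with 5273 nt, was listed at 2.58 TPM from 318 counts. Fat1 was assigned 2882 nt in HP1γ WT replicate 3 and 5229 nt in HP1α KO replicate 3, and between 13940 and 14816 nt in the other 14. The shorter lengths lifted the TPM of these 2 samples. HP1γ WT replicate 3 held 9 counts, within the 7 to 16 of its group. HP1α KO replicate 3 also held the most counts of its group, 41 against 11 to 31. Dnah12 was assigned 12011 nt in 15 samples and 7039 nt in HP1γ KO replicate 4.

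Gm37240 was the most affected. All 4 WT samples of the HP1α line were assigned at least 2879 nt, whereas the HP1γ KO samples were assigned 879, 707, 960 and 1498 nt. In HP1α KO 2 samples had 2914 and 2698 nt and were listed at 0.360 and 0.229 TPM, and the other 2 had 412 and 590 nt and were listed at 1.54 and 1.62 TPM. Oxsr1 was the only one of the 10 genes whose assigned length did not overlap between HP1γ KO (3582 to 3887 nt) and WT (3920 to 4302 nt), as was found for 3.58% of 12558 genes with several transcripts. Its mean TPM, 63.8 in KO and 30.5 in WT, therefore differed by more than its CPM, 144 and 79.3.

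**Figure D3:**
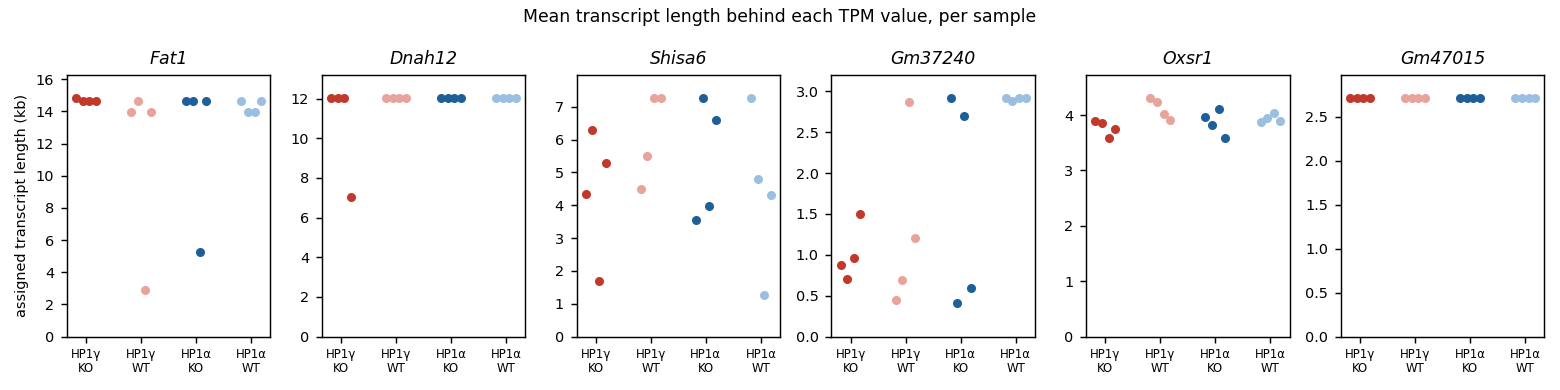
Mean length (kb) of the transcripts to which reads were assigned, for 6 of the genes in each of the 16 samples (points, 4 per group). Gm47015 stays at 2710 nt in every sample, while Shisa6 and Gm37240 vary several-fold between samples of 1 group and Oxsr1 is shorter in HP1γ KO than in WT.

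For 2 of the genes, reads can be shared with other genes of near-identical sequence (at least 150 nt at 98% identity or more, on the same strand). Gm37240 shares up to 2244 nt with Arfip1, Fhip1a and Glt28d2, and none of its 16 count values was a whole number. Such values do not mark shared sequence by themselves, since Gm47015, which had no match, held 10 of them. Fhip1a, whose start lies 70227 bp from that of Gm37240, was at 15.8 ± 5.61 CPM in HP1γ KO and 4.98 ± 3.12 CPM in WT (SD, n = 4), a log2FC of 1.68 (SE 0.395, adjusted p = 0.167 in edgeR). Glt28d2 had 1.48 (SE 0.357, adjusted p = 0.176 in edgeR). Arfip1, at 25.2 ± 0.982 CPM in HP1γ KO and 26.1 ± 1.99 CPM in WT, had -0.04 (SE 0.0745, adjusted p = 0.858 in edgeR). How the rise of Gm37240 divides between these overlapping gene models cannot be told from the counts.

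Gm21188 shares at least 150 nt on the same strand with Gm36161 and with Gm36079, now named Anxa2r2, which was listed at 0 in all samples. Its longest match to any gene on either strand was 953 nt. Gm36161 was at 1.17 ± 0.252 CPM in HP1γ KO and 0.250 ± 0.174 CPM in WT (SD, n = 4), a log2FC of 2.13 (SE 0.428, adjusted p = 0.0956 in edgeR). In HP1α KO, where Gm21188 had more counts than in WT, Gm36161 was at 0.225 ± 0.131 CPM against 0.440 ± 0.174 CPM in WT (adjusted p = 0.946 in edgeR). Als2cl overlaps Tmie, of which the start is 750 bp away on the opposite strand. Tmie was at 4.27 ± 1.08 CPM in HP1γ KO and 3.32 ± 1.22 CPM in WT (adjusted p = 0.618 in edgeR).

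No gene around the 10 passed the edgeR test. Of 162 other tested genes that start within 1 Mb of any of the 10, 0 had an adjusted p under 0.05 in the HP1γ line by edgeR, and their median log2FC was 0.00026, against 0.00050 over all genes tested. An unadjusted p under 0.05 was reached by 12 higher and 10 lower, where 11.9% of all tested genes had one in either direction. DESeq2 called 4 of them past both thresholds, namely Fhip1a, Glt28d2, Gm36161 and Xylb. Xylb, a xylulose kinase gene 33739 bp from Oxsr1, had a log2FC of 1.14 (SE 0.234, adjusted p = 0.103 in edgeR). In the HP1α line, 0 of 158 such genes had an adjusted p under 0.05 by either tool, and 4 higher and 5 lower had an unadjusted p under 0.05.

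**Figure D4:**
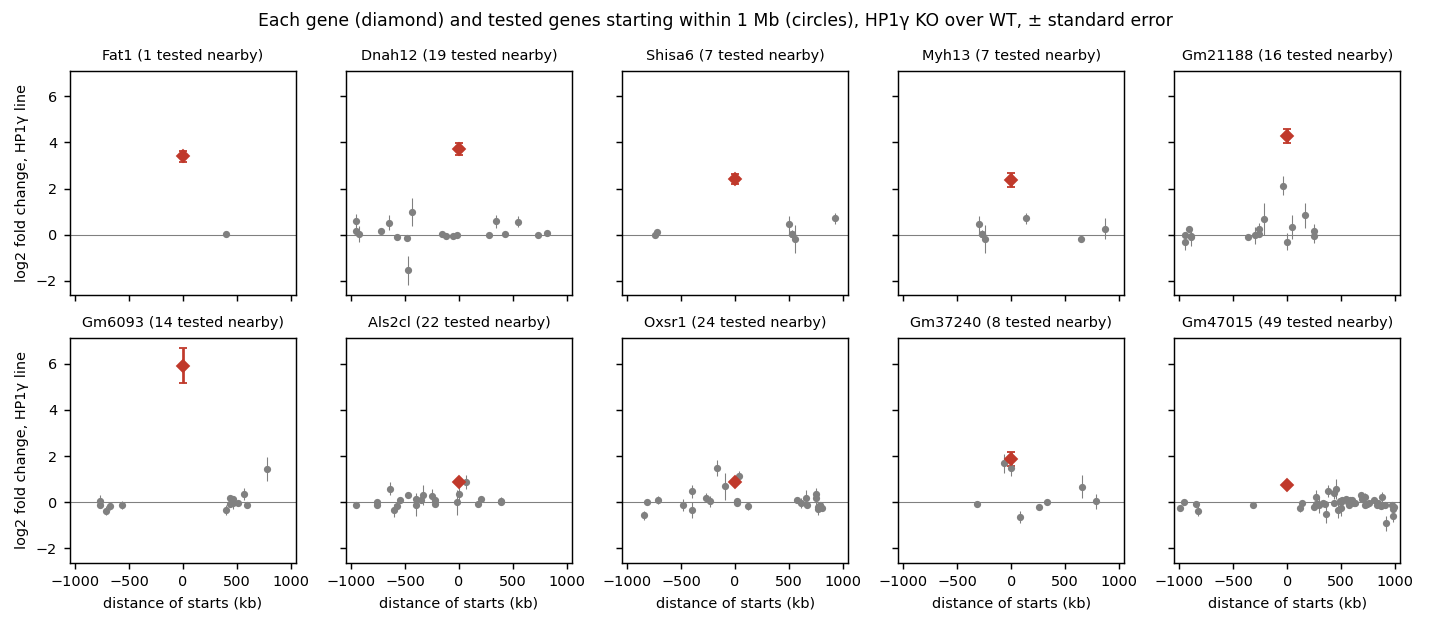
Log2FC of HP1γ KO over WT, with SE, for each of the 10 genes (red diamond, at distance 0) and the tested genes that start within 1 Mb (grey circles), against the distance between starts in kb. Every diamond but that of Oxsr1 (0.87), which lies below Acaa1b (1.49) and Xylb (1.14), lies above all circles around it. Gm37240 has Fhip1a (1.68) and Glt28d2 (1.48) close to it, and Als2cl has a circle nearly level with it.

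Single neighbours were read at their nearest on either side. Fat1 has no tested neighbour on the lower side within 1 Mb, and Cyp4v3, 398028 bp away on the other side, had a log2FC of 0.04 in the HP1γ line (SE 0.117). Dnah12 is flanked by Pde12 (-0.03, SE 0.0818), only 23365 bp away, and by Appl1 (-0.00453, SE 0.0626). Oxsr1 is followed by Acaa1a at 17233 bp (-0.03, SE 0.0686) and preceded by Slc22a13b (0.70, SE 0.577). On chromosome 11, Zkscan6 lies before Shisa6 (0.13, SE 0.0732) and Gas7 behind Myh13 (0.72, SE 0.237, adjusted p = 0.325 in edgeR). Between Shisa6 and Myh13, the log2FC values were 0.45 for Tmem220 (SE 0.352), 0.03 for Sco1 (SE 0.167), 0.04 for Adprm (SE 0.0822) and -0.19 for the embryonic myosin gene Myh3 (SE 0.623). Adjusted p-values of these 4 genes were between 0.637 and 0.958 in edgeR, so that 0 of the 4 genes between Shisa6 and Myh13 passed the test.

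Relatives of the protein-coding genes did not pass the test either. Lists of the Fat and Hippo genes, dynein heavy chains, conventional myosin heavy chains, Shisa genes, Rab5 regulators with alsin, and WNK pathway genes held 87 genes without the 10, of which 46 were tested. In the HP1γ line 0 had an adjusted p under 0.05 by edgeR, and DESeq2 called 0 past both thresholds and gave 1 an adjusted p under 0.05. An unadjusted p under 0.05 was reached by 5, all higher, against 11.9% of all tested genes in either direction and 6.34% higher, and the median log2FC was 0.06 against 0.00050 over all genes. In the HP1α line edgeR and DESeq2 called 0 of 46, with 5 at an unadjusted p under 0.05, all lower, against 4.27% of all tested genes in either direction and 2.59% lower, and a median of -0.02 against 0.00258.

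In each family, the pair of other genes with the highest mean TPM was read. Among the Hippo genes these were the kinase gene Stk4 (205 TPM over the 16 samples, log2FC 0.06) and its adaptor Mob1a (93.6 TPM, -0.06), among the dyneins the cytoplasmic motor Dync1h1 (90.6 TPM, -0.01), and among the myosins the nonmuscle Myh9 (542 TPM, 0.04). Shisa5, the abundant Shisa gene of lymphocytes (4269 TPM), had -0.03, and Shisa4 (0.606 TPM) had 0.29. The early endosome GTPase gene Rab5c (173 TPM) and its activator Rin3 (78.1 TPM) had -0.08 and 0.01. Upstream of Oxsr1, Wnk1 (163 TPM) had 0.13, and Cul3, the ubiquitin ligase scaffold of the WNK pathway (176 TPM), had 0.04. The adjusted p-values of these 10 genes were between 0.522 and 0.968 in edgeR. Myh10, a nonmuscle myosin at 0.333 TPM, had a log2FC of 1.44 (SE 0.448, adjusted p = 0.304 in edgeR). The other abundant dynein, Dnah8 (18.6 TPM), had 0.64 (SE 0.124, adjusted p = 0.0886 in edgeR).

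The axonemal dynein gene Dnah8 had the closest pattern to Als2cl of all genes. It was at 126 ± 20.1 CPM in HP1γ KO and 81.8 ± 11.5 CPM in WT (SD, n = 4), and at 110 ± 4.65 and 119 ± 10.0 CPM in KO and WT cells of the HP1α line. Dnah8 thus shared with Als2cl the low level of the HP1γ WT samples (Pearson's r of log2 CPM over the 16 samples 0.91), although its log2FC in HP1γ KO, 0.64 (SE 0.124), had an adjusted p of 0.0886 in edgeR. The gene second to it was Nlrp1b, a sensor of the inflammasome, with an r of 0.87. Correlations here are descriptions over samples that share the 4 groups, and a gene high in HP1γ KO alone will resemble most of the 10.

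For the other genes, the closest patterns were repeatedly those of the same few. Mbd1, a reader of methylated DNA, was among the closest pair for Oxsr1 (r = 0.95), Shisa6 (0.93), Dnah12 (0.93) and Gm6093 (0.93). The unconventional myosin gene Myo5b was so for Shisa6 (0.95), Oxsr1 (0.93) and Gm37240 (0.86). Fat1 went with Gm49215 (0.93) and the homeobox gene Otx1 (0.93), Dnah12 also with Gm49215 (0.93), Myh13 with the vomeronasal receptor gene Vmn2r96 (0.89) and Otx1 (0.89), and Gm6093 also with Vmn2r96 (0.93). Gm21188 went with Gm16565 and Sec14l2 (0.92 each), Gm37240 also with Gm12737 (0.87), and Gm47015 with Trim24 and Baz2b (0.92 each), both genes of bromodomain proteins.

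Within groups, no shared variation of the 10 genes as a set was seen, but counting error can hide one where counts are few. Outside HP1γ KO, Gm6093 held between 0 and 11 counts a sample. Over the 45 pairs, the correlation of deviations from the group means in log2 CPM (16 samples) had a median of 0.0054, with 23 pairs above 0, and ranged from -0.51 (Gm21188 with Gm6093) to 0.67 (Dnah12 with Gm6093). Fat1 and Gm47015 had the second highest value, 0.66. Replicate 4 was the highest of the HP1γ KO samples for Gm6093, Myh13, Shisa6 and Gm47015, replicate 2 for Gm21188, Oxsr1 and Gm37240, replicate 3 for Dnah12 and Als2cl and replicate 1 for Fat1.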

How the data were processed

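RNA-Seq of memory CD4+ T cells from 16 samples, 4 per group by the titles, was analysed. The authors used Trim Galore, STAR (GRCm39) and Salmon, and deposited each gene's estimated count (11.6% of the values are not whole) and TPM. Here the counts were rounded. Each KO group was compared with its WT littermates (8 samples) by edgeR's quasi-likelihood test (R 4.3.3, edgeR 4.0.16: TMM, filterByExpr with a minimum count of 10, Benjamini-Hochberg adjustment over all tested genes), and genes were called where the adjusted p was under 0.05 and the log2FC, in absolute value, above 1. Single values are CPM after TMM over the 16 samples.

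The 10 genes, the gene lists and the tests were chosen with earlier results of these data known. Named are the 10 genes, Cbx3, Cbx5, in each family genes at an adjusted p under 0.05 or otherwise the pair with the highest mean TPM, the nearest tested neighbours, the pair of genes closest in pattern by Pearson's r of log2 CPM (prior count 2), and the extreme markers. Dnah8 and Myh10 enter by that rule, and Xylb, Acaa1b and the genes that share sequence were added after their values were seen.

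Positions and promoters came from a later GENCODE release of GRCm39 than the authors' annotation (56017 of 56748 genes matched), and the promoter of 1 of the 10 genes is not reported here. Depth, between 26694045 and 40199637 counts per sample, leaves a floor of 3 counts. None of the 24 replicate pairs agreed within sampling noise (chi-square per gene at least 10.4). Alternatives were DESeq2 1.42.0, RLE size factors, no filter, the replicate number as a block, all 16 samples in one fit, limma 3.58.1 on log2(TPM + 0.1) and log2(TPM + 1), a window of 500 kb and the omission of each sample. Tests were checked on simulated counts. Labels on transferred cells do not match the memory cell experiment and were not used.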

Additional observations from a re-analysis of the deposited data

Results flagged for a closer look

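Among 40 groups of 4 samples, in which chance flags about 1 in 20, 3 values stood far from the other 3 of their group. Gm6093 was at 6.19 CPM in the fourth HP1γ KO sample, against 1.29 to 1.97 CPM in the others, all of which were above every WT sample. In the HP1α line, Gm6093 was at 0.350 CPM in the second KO sample, against at most 0.0515 CPM in the other 3. Als2cl was at 285 CPM in the fourth WT sample of the HP1α line, against 221 to 223 CPM in the others. Over 210 genes of the families and neighbourhoods, 0 had KO effects that differed between the lines at an adjusted p under 0.05 by edgeR.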

How the results depend on the processing

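In the HP1α line, 0 of the genes tested were called under any of the alternatives, which held 8 of the 10, and all 10 only without the filter and with all 16 samples. On log2(TPM + 0.1) and log2(TPM + 1), Shisa6 turned to -0.14 and -0.091 and Gm37240 to 0.55 and 0.32, both genes whose assigned transcript length varied. Gm6093 fell below 0 without the second HP1α KO sample, at -0.0441 CPM, in differences between -0.0441 and 0.0725 CPM over the omissions, an alternative added after seeing the data. The log2 fold change of the 10 genes in HP1γ KO kept its sign throughout, and 15 of 150 values moved by more than 1 SD, 14 of them on a TPM scale. On log2(TPM + 0.1) and log2(TPM + 1), Oxsr1 changed from 0.87 to 1.07 and 1.04, Shisa6 changed from 2.42 to 2.81 and 1.61, and the other values that moved were smaller. Gm6093 moved to 6.95 without HP1γ WT replicate 4. On log2(TPM + 1), 2 of the 10 passed both thresholds. Without 1 sample, 6 or 7 did, and Gm37240 was the gene lost. Replicate numbers were not taken to pair the samples, since correlations of the same number were not all above 0.1 (0.00286 to 0.153 in the HP1γ line and 0.0940 to 0.228 in the HP1α line). Their means were 0.0861 and 0.161, and 2 of 8 and 6 of 8 samples correlated best with their own number, a hint from the data. The means of other numbers, -0.0286 and -0.0538, nearly follow from these, since the correlated deviations from group means sum to 0. With a replicate block 6 of the 10 passed. Of the neighbours, 4 were called by DESeq2, 1 without the filter (Fhip1a), 2 with all 16 samples (Gm36161 and Xylb), 1 on log2(TPM + 1) (Gm36161), and 0 or 1 with a sample left out. The cause was not tested. The WT lines differed by over 1 on the log2 scale in 1 gene (Gm21188) without the filter and with all 16 samples. Depth limits Gm6093 and Gm21188 in WT cells, where a sample held at most 6 counts.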
